A study of Mus musculus with 16 samples.

Results

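Markers of vascular endothelium and endocardium were examined in primary explants of mouse epicardium, the outer cell sheet of the heart, which had been grown on a collagen gel with blebbistatin (8 explants) or without it (8 controls). Blebbistatin is a small molecule that blocks myosin II, the actin-based motor of cell contraction. The 10 markers (Pecam1, Cdh5, Kdr, Flt1, Tek, Tie1, Emcn, Egfl7, Esam and Erg) were chosen by gene symbol, and 6 of them had a row among the 15805 genes of the count table. Cdh5, Tie1, Emcn and Erg had no row and were not analysed here. Both groups carried the strain label C57BL6 and the cell type label of epicardial cells, and age, sex and genotype were not given in the sources used here. The blebbistatin dose is written as 20, in one place with mM and in another with mm, so its unit is not settled. The question put to the markers was whether endothelial RNA differed between the groups and whether its genes varied together from explant to explant.

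Endothelial cells line the vessels, and endocardial cells, a related type, line the chambers of the heart. Their markers include receptor tyrosine kinases that read vascular growth factors. Kdr (VEGFR2) carries most of the proliferative VEGF signal, and Flt1 (VEGFR1) binds VEGF tightly and in large part acts as a trap for it. Tek (TIE2) is the receptor of the angiopoietins, which steady a vessel once it is built. The epicardium supplies fibroblasts and mural cells to the coronary vessels and signals to the coronary endothelium beside it, so a piece of epicardium can bring some endothelial cells into culture. In bulk RNA of an explant, fewer endothelial cells and less RNA per cell cannot be told apart. Bulk RNA also does not show which cells of the explant made the RNA of a marker, and this was not tested.

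Sequencing depth ranged from 20176386 to 89620195 reads counted per blebbistatin library and from 27065611 to 60321622 per control library. Levels are given as CPM, counts scaled to a common library total with the TMM factors, and 1 CPM stood for about 20.9 to 77.4 counts. Blebbistatin 1 and blebbistatin 8 had the fewest genes detected, 15468 and 15492, against 15634 to 15795 in the other 14 libraries. For the receptors and their correlations, values are given with and without these 2 libraries. The labels do not say whether the explants came from separate animals, so p-values measure the spread between these explants, which may in part be technical. Over the whole transcriptome edgeR called 95 of 15675 tested genes, 40 higher and 55 lower with blebbistatin.

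The endothelial markers differed widely in level, and most were scarce. Per kilobase of exon, Tek and Flt1 stood above the other markers in both groups. Tek averaged 5.81 ± 2.25 CPM per kb with blebbistatin and 7.25 ± 1.53 CPM per kb in controls, and Flt1 averaged 3.37 ± 1.71 CPM per kb with blebbistatin and 4.13 ± 1.95 CPM per kb in controls (SD, n = 8 each). The other 4 markers averaged under 0.5 CPM per kb in both groups: Egfl7 at 0.433 with blebbistatin and 0.251 in controls, Pecam1 at 0.256 with blebbistatin and 0.234 in controls, Esam at 0.227 with blebbistatin and 0.465 in controls, and Kdr at 0.218 with blebbistatin and 0.495 in controls. The 6 markers summed to 35.5 to 121 CPM with blebbistatin (median 84.4) and 62.1 to 149.9 CPM in controls (median 92.4). By comparison the 10 epicardial markers, all present, summed to 1383 to 5096 CPM with blebbistatin and 2191 to 6124 CPM in controls.

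Tek, Flt1 and Kdr are shown by their promoters because the pairs of Kdr with Tek and with Flt1 had the highest correlations among the markers across explants. The windows come from RefSeq on GRCm38.p6, run from 250 bases before to 50 bases after the annotated start, and are written 5′ to 3′ on the gene's strand. Capitals mark 2 strings that were searched on both strands. One is AGGAAG, whose reverse complement reads CTTCCT and which holds the core bound by ETS factors such as Erg and Fli1. The other is TGACGT, whose reverse complement reads ACGTCA and which is the core of the cyclic AMP response element.
Tek, chr4:94739039-94739338, plus strand: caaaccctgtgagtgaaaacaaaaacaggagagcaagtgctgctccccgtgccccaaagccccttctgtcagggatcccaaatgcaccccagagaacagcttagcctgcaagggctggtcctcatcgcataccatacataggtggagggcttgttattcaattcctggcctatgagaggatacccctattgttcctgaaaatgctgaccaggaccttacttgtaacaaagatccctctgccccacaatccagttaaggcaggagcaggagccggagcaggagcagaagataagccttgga
Flt1, chr5:147725962-147726261, minus strand: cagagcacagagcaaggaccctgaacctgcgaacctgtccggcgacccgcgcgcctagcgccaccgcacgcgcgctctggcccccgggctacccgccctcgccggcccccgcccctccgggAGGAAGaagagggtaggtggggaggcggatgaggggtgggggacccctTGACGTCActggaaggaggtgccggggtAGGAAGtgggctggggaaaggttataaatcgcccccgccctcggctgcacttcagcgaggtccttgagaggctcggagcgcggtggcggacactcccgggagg
Kdr, chr5:75978406-75978705, minus strand: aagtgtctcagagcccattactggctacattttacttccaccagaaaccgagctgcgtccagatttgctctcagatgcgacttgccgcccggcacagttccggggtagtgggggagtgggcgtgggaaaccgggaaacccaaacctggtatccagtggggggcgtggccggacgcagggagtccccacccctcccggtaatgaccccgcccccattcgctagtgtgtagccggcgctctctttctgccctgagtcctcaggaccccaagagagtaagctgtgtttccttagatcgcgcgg
The Flt1 window held 2 matches of AGGAAG and 2 of TGACGT, which overlap on opposite strands and make one palindrome. In the Tek and Kdr windows neither string occurred. AGGAAG is longer than the ETS core it holds, so a window without AGGAAG can still hold that core. Among 32851 mouse promoters of the same length, 35.4% held AGGAAG and 7.51% held TGACGT on either strand. A match is a string of letters and not a bound site. Of the 6 markers 4 matched the promoter table, and Egfl7 matched it with 3 starts whose windows held 3, 2 and 0 matches of AGGAAG.

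Tek (chromosome 4, 94739289 to 94874976, plus strand, GRCm38) was detected well in every explant. With blebbistatin its 8 libraries had a lowest level of 15.9, a median of 24.5 and a highest level of 42.7 CPM, and the control libraries had 25.3, 32.9 and 47.7 CPM. The ranges overlapped, although blebbistatin 1, 8, 5 and 3 lay below every control. The log2 fold change, blebbistatin minus control, was −0.32 (SE 0.21, adjusted p = 0.585 by edgeR's quasi-likelihood test), and −0.15 without blebbistatin 1 and 8.

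Flt1 (chromosome 5, 147561604 to 147726011, minus strand) had 17.2, 46.8 and 78.0 CPM as lowest, median and highest level with blebbistatin, and 22.7, 52.7 and 106 CPM in controls. The groups overlapped over most of their range, and the lowest libraries were again blebbistatin 1 (17.2 CPM) and blebbistatin 8 (17.6 CPM). Its log2 fold change was −0.29 (SE 0.33, adjusted p = 0.773). Without those 2 libraries the value was −0.04.

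Kdr (chromosome 5, 75932827 to 75978458, minus strand) showed the widest gap between the groups among the receptors. Its levels were 0.128, 2.43, 3.46, 0.955, 2.12, 4.40, 2.14 and 0.0855 CPM in blebbistatin 1 to 8, against 5.86, 6.63, 1.36, 5.36, 3.79, 4.16, 5.08 and 3.53 CPM in control 1 to 8. All 8 blebbistatin libraries lay below the control median of 4.62 CPM, while control 3 reached down among them and blebbistatin 6 up among the controls. The 2 lowest values rested on 6 counts in blebbistatin 1 (exact Poisson 95% interval 0.0471 to 0.279 CPM) and 4 counts in blebbistatin 8 (0.0233 to 0.219 CPM). These intervals cover counting error only, and both lie under the third lowest value, 0.955 CPM in blebbistatin 4. The mean of Kdr was 1.96 ± 1.53 CPM over the blebbistatin libraries and 4.47 ± 1.64 CPM over the control libraries (SD, n = 8 each). Its log2 fold change of −1.19 (SE 0.58) did not pass the edgeR test (unadjusted p = 0.0528, adjusted p = 0.417). Without blebbistatin 1 and 8 the log2 fold change was −0.80 (adjusted p = 0.343), and over all alternatives the adjusted p ran from 0.185 to 0.549.

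**Figure D1:**
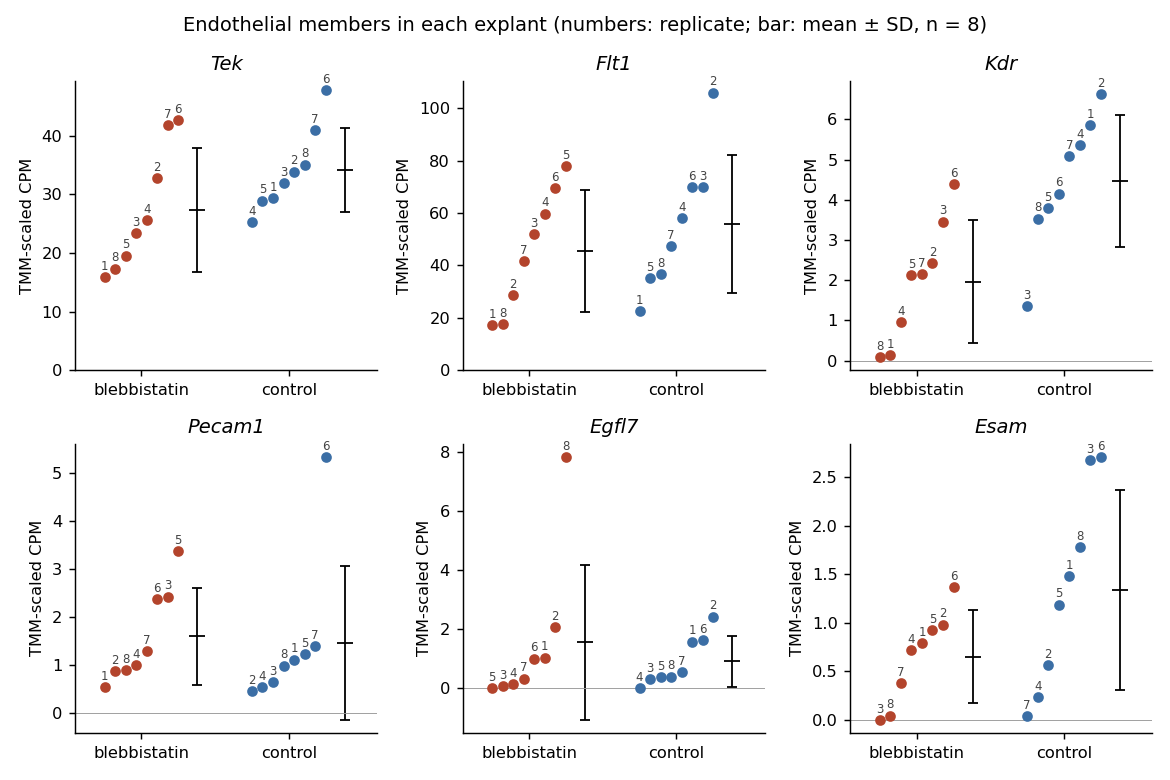
Levels of the 6 measured markers in TMM-scaled CPM (linear axis) in each explant, blebbistatin left and control right, with the replicate number beside each point and bars for mean ± SD (n = 8). Kdr lies below its control median of 4.62 CPM in all 8 blebbistatin libraries, blebbistatin 1 and 8 are lowest for Tek, Flt1 and Kdr, and 1 explant stands apart for Pecam1 (control 6, 5.33 CPM) and for Egfl7 (blebbistatin 8, 7.83 CPM).

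Of the adhesion molecules, Pecam1 (CD31, chromosome 11, 106654217 to 106750628, minus strand) is the classic surface marker of endothelium, carried also by platelets and many leukocytes. Its levels had a minimum of 0.534, a median of 1.15 and a maximum of 3.37 CPM with blebbistatin, and 0.456, 1.05 and 5.33 CPM in controls. The groups overlapped throughout, and control 6 alone set the upper end of the controls, whose next highest library had 1.40 CPM. The log2 fold change was 0.12 (SE 0.54, adjusted p = 0.947), and 0.81 without control 6, again not called.

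Esam (chromosome 9, 37528078 to 37538319, plus strand) encodes a tight junction protein of endothelial cells and platelets. It had 0, 0.754 and 1.37 CPM as lowest, median and highest level with blebbistatin, and 0.0358, 1.34 and 2.71 CPM in controls. Of the blebbistatin libraries 7 lay below the control median, but the ranges overlapped, and the log2 fold change of −1.04 (SE 0.80) had an adjusted p of 0.652. Only blebbistatin 6 of its group exceeded 1 CPM of Esam, so Esam reached the table's limit (1 CPM in 4 libraries) through the controls. No read of it was counted in blebbistatin 3, which allows a level of up to 0.0543 CPM (3 counts).

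Egfl7 (chromosome 2, 26580014 to 26593120, plus strand) encodes a protein that endothelial cells secrete into the matrix, and its locus holds the microRNA miR-126. It had 0, 0.654 and 7.83 CPM as lowest, median and highest level in blebbistatin libraries, and 0, 0.461 and 2.42 CPM in control libraries. One explant, blebbistatin 8, stood far above the rest, and the next highest blebbistatin library had 2.06 CPM. The log2 fold change was 0.79 (SE 0.98, adjusted p = 0.792) with that library and −0.44 without it. Egfl7 shares 64 exon bases with Agpat2 on the opposite strand and 264 with the predicted gene Gm20532 on its own strand. The strand setting of the counting was not given in the sources used here. The count of Egfl7 may therefore include reads of these genes or lack some of its own. No read was counted in blebbistatin 5 or control 4, which allows up to 0.0816 and 0.0999 CPM (3 counts).

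Across the list, 0 of 6 markers passed the edgeR test, where 0.606% of all tested genes did, and 0 of 6 had an unadjusted p under 0.05, where 12.2% of all tested genes did. DESeq2 gave an adjusted p for Tek, Flt1 and Kdr and called 0 of these 3, where it called 3.2% of the genes it adjusted. The 6 log2 fold changes had a median of −0.31, beside 0.04 over all tested genes, with 4 negative and 2 positive. No alternative called any of the 6. The spread between explants of a group was wide, with SEs from 0.21 for Tek to 0.98 for Egfl7, so a p over the threshold does not show equal levels.

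Whether the markers moved together was asked with Pearson's r and Spearman's rho on log2 CPM, taken as deviations from the group mean so that a difference between the groups adds nothing. Among 15 pairs of the 6 markers 12 had a positive r and 3 a negative one, with a median of 0.14 and a range of −0.45 to 0.61. Over all pairs of 15673 genes the median r was −0.0012 and the quartiles were −0.22 and 0.22. No pair passed 0.05 after Benjamini-Hochberg adjustment over the 15 pairs, and 2 had an unadjusted permutation p under 0.05.

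The highest pairs joined the receptors. Kdr and Tek had r = 0.61 (2-sided permutation p = 0.0466, adjusted p = 0.315) and rho = 0.50 (permutation p = 0.0923) over 16 explants, and Kdr and Flt1 had r = 0.57 (permutation p = 0.0386, adjusted p = 0.315) and rho = 0.41 (permutation p = 0.154). Flt1 and Tek had r = 0.40 (permutation p = 0.160). Both Kdr relations rested on blebbistatin 1 and 8, which are also the 2 libraries farthest from the median of Kdr. Without them r was 0.17 for Kdr and Tek, −0.06 for Kdr and Flt1, and −0.01 for Flt1 and Tek. Within the blebbistatin group r was 0.74 for Kdr and Tek (exact permutation p = 0.0403, n = 8) and 0.81 for Kdr and Flt1 (exact permutation p = 0.0166, n = 8), neither called after adjustment over the 15 pairs. Among the 6 blebbistatin explants other than 1 and 8, r was 0.34 for Kdr and Tek and 0.02 for Kdr and Flt1. Within the control group the same pairs had r = −0.02 and r = −0.11. Taken without centring on the group means, Kdr and Tek had r = 0.70 (adjusted permutation p = 0.0343), a value that also holds the difference between the groups.

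**Figure D2:**
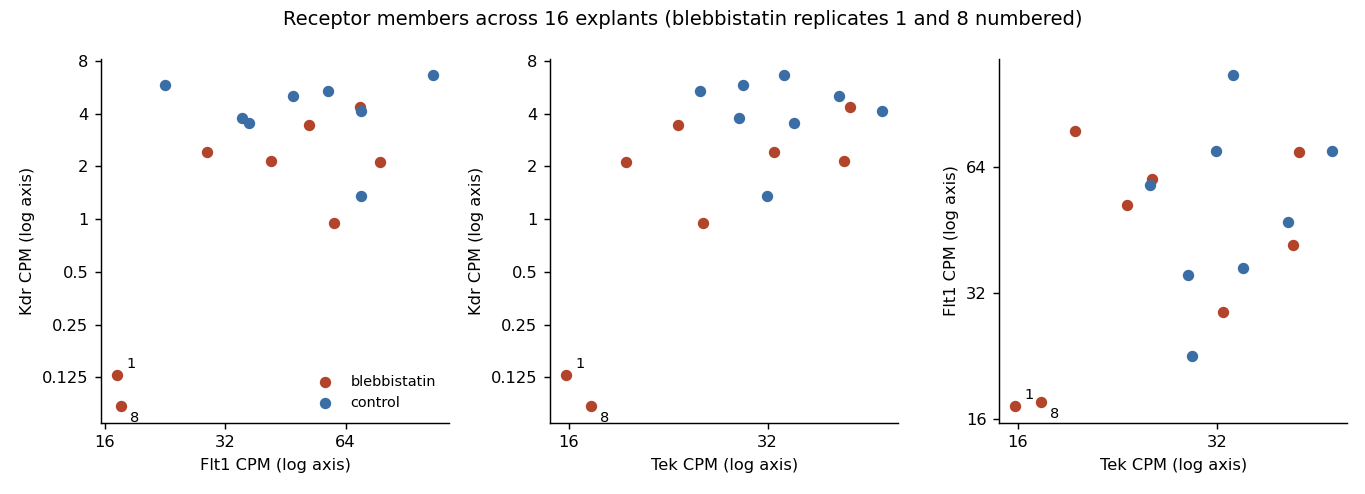
Kdr against Flt1, Kdr against Tek, and Flt1 against Tek in 16 explants, in TMM-scaled CPM on log axes, with blebbistatin points in red and control points in blue. Blebbistatin 1 and 8, numbered, lie at the low end of both axes in each panel, and the other 14 explants show r = −0.06, 0.17 and −0.01 for the 3 panels from left to right.

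Pecam1 had positive values with each receptor, r = 0.43 with Kdr, 0.42 with Tek and 0.34 with Flt1, none called after adjustment. In the blebbistatin explants Pecam1 and Flt1 had r = 0.84 and rho = 0.86 (exact permutation p = 0.0131 and 0.0107, n = 8, adjusted p = 0.125 and 0.138), whereas in the controls r was −0.16. Without blebbistatin 1 and 8 the blebbistatin value was r = 0.76 and rho = 0.71 (exact permutation p = 0.0764 and 0.136, n = 6). In the controls the highest value was that of Pecam1 and Tek, r = 0.74 (exact permutation p = 0.0369, n = 8, adjusted p = 0.554). Within the groups alone 6 of 15 pairs were negative with blebbistatin, down to r = −0.76 for Flt1 and Egfl7, and 5 of 15 in controls, down to r = −0.51 for Kdr and Esam. The difference between the groups was not tested for any pair. Egfl7 had the negative values: −0.45 with Flt1, −0.36 with Kdr and −0.16 with Pecam1. Without blebbistatin 1 and 8 they were −0.19, 0.26 and 0.01, and the highest pair was then Tek and Egfl7 with r = 0.68 (adjusted permutation p = 0.221).

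**Figure D3:**
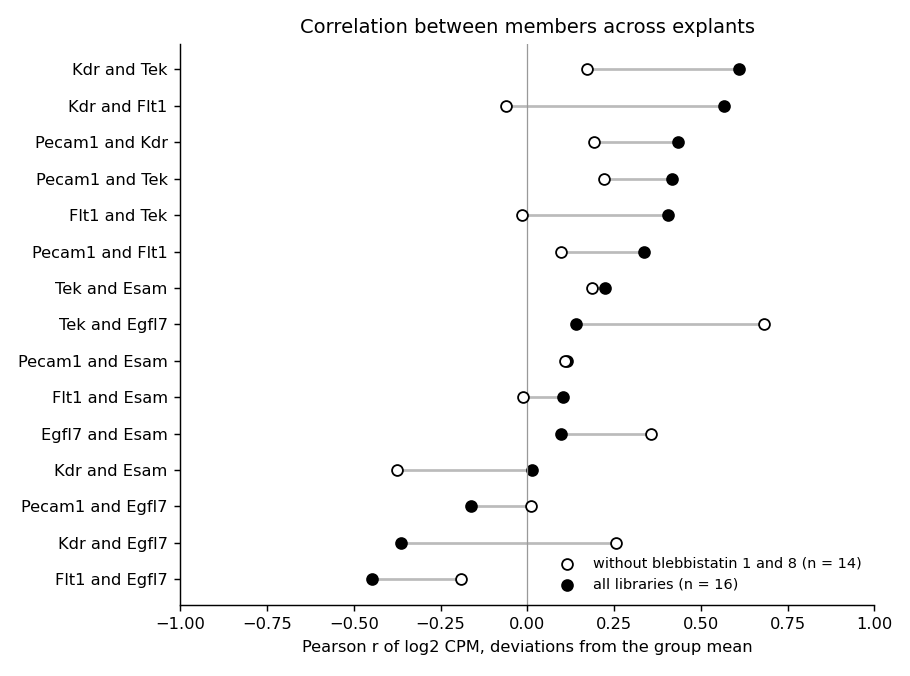
Pearson r of log2 CPM (deviations from the group mean) for the 15 pairs of markers, with filled points for all 16 explants and open points for the 14 without blebbistatin 1 and 8. Filled points run from −0.45 to 0.61, and the open points of both Kdr pairs with Flt1 and Tek lie near 0.

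The same was computed for a wider set of endothelial genes. Among 62 other endothelial, endocardial and lymphatic genes the median r over 1891 pairs was 0.03, with 1013 pairs positive. The 62 include ligands such as Vegfa and Apela. The median r of a marker with these 62 genes was 0.06 for Flt1, 0.04 for Pecam1, 0.02 for Kdr, 0.02 for Egfl7, 0.00 for Tek and −0.03 for Esam. Against all genes it lay between −0.01 and 0.03 for each marker. Without blebbistatin 1 and 8 the median for Flt1 was 0.23, with 43 of 62 genes positive. The medians of the other markers were then 0.08 for Pecam1 (35 of 62 positive), 0.05 for Kdr (34 of 62), −0.01 for Esam (30 of 62), −0.08 for Tek (25 of 62) and −0.10 for Egfl7 (28 of 62). These medians are descriptions without a test. The wider set spans levels from Notch4 (mean 0.747 CPM with blebbistatin and 0.442 CPM in controls) to Nrp2 (698 and 593 CPM). Vcam1 (400 and 532 CPM) and Pdpn (205 and 219 CPM) also lay far above every marker. Which cells made this RNA was not tested, so medians near 0 do not settle whether RNA of endothelial cells varied together.

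Each marker was also set against the summed CPM of epicardial, fibroblast and macrophage markers and against the total count, 24 relations in all, chosen after the data had been seen. None passed 0.05 after adjustment over the 24. The most marked was that of Flt1 with the epicardial markers, r = −0.74 (permutation p = 0.00258, adjusted p = 0.0619) and rho = −0.73 (permutation p = 0.00325, adjusted p = 0.0780). It was −0.66 within the blebbistatin explants, −0.86 within the controls, and −0.73 without blebbistatin 6 and control 6, the 2 farthest on the epicardial axis. Without blebbistatin 1 and 8 it was −0.78 (adjusted permutation p = 0.0276), and without blebbistatin 8 alone −0.82 (adjusted permutation p = 0.0115). Both settings drop blebbistatin 8, and leaving out any other single library gave no call by Pearson's r among the 24. By Spearman's rho, 1 of the 24 relations was also called without blebbistatin 4 and 1 without control 2. Blebbistatin 2 and control 1, with the highest epicardial sums of their groups (5096 and 6124 CPM), had 28.8 and 22.7 CPM of Flt1, whereas blebbistatin 6 and control 6, with the lowest sums (1383 and 2191 CPM), had 69.5 and 69.8 CPM. Blebbistatin 8 departed from this order, with 17.6 CPM of Flt1 at a sum of 2760 CPM. Flt1 and the fibroblast markers had r = −0.61 (permutation p = 0.0163, adjusted p = 0.195), and −0.45 without blebbistatin 1 and 5.

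Pecam1 and the macrophage markers had r = 0.41 (permutation p = 0.125, adjusted p = 0.499), and r = −0.06 without blebbistatin 3 and control 6, the explants with the highest macrophage sums of their groups. Those sums ran from 269 to 3414 CPM with blebbistatin and from 310 to 4118 CPM in controls. Control 6 was thus highest both for macrophage markers and for Pecam1, and the part of macrophage RNA in the Pecam1 level was not tested. With the macrophage level as a covariate the count of called markers stayed at 0 of 6.

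**Figure D4:**
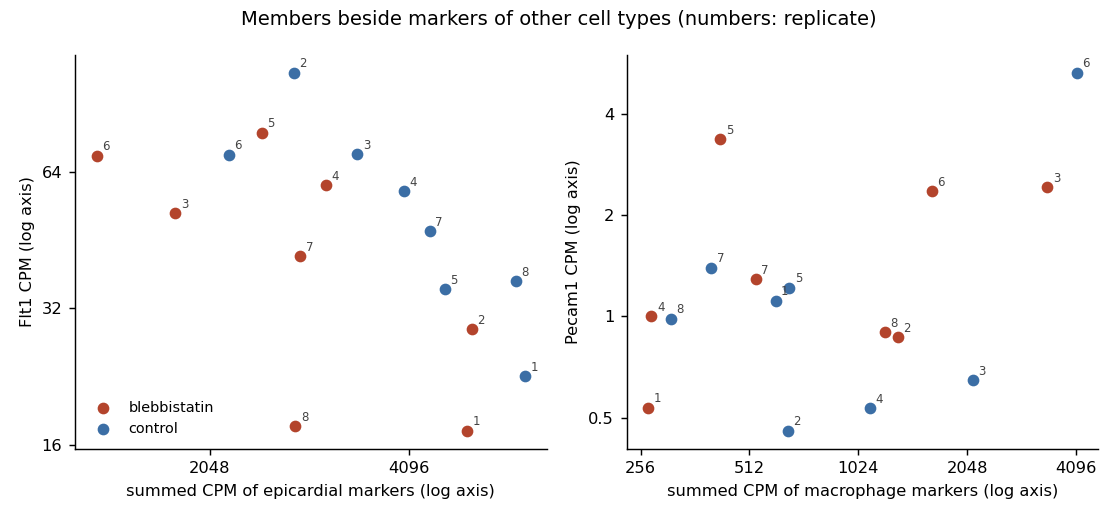
Left, Flt1 against the summed CPM of 10 epicardial markers; right, Pecam1 against the summed CPM of macrophage markers, all on log axes, with blebbistatin in red, control in blue and replicate numbers beside the points. The Flt1 points run from upper left to lower right (r = −0.74 after centring), apart from blebbistatin 8, and control 6 is at the upper right of the Pecam1 panel.

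Markers of other cell types were measured in the same libraries. Of 13 macrophage genes 11 had a row and 10 were tested, with 0 called and a median log2 fold change of 0.37. Of 10 red blood cell genes only Alas2 had a row, at 0.470 to 6.82 CPM with blebbistatin and 0.793 to 5.76 CPM in controls. Platelet genes summed to 1.33 to 7.15 CPM with blebbistatin and 0.966 to 5.36 CPM in controls, from 3 of 7 genes. Epicardial genes had 0 of 10 called and a median of −0.47. In the pericyte and smooth muscle list 0 of 7 tested genes were called (median −0.84), in the fibroblast list 0 of 6 (median 0.24), and in the heart muscle list 0 of 3 (median 0.66). By edgeR 12.2% of all tested genes had an unadjusted p under 0.05. So did 4 of 10 epicardial genes (all lower), and 1 of 7 pericyte and smooth muscle genes (lower). In the fibroblast list 3 of 6 did (2 higher and 1 lower), in the heart muscle list 2 of 3 (both higher), and in the macrophage list 0 of 10. The part of these cell types in the marker levels was not tested.

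Other genes of endothelium, endocardium and lymphatic endothelium numbered 96 in lists by role, of which 64 had a row and 62 were tested. The lists include 8 measured ligands, such as Vegfa and Apela, and which cells made the RNA of the listed genes was not tested. By edgeR 0 of 62 passed, 18 had an unadjusted p under 0.05 (8 higher and 10 lower with blebbistatin), where 12.2% of all tested genes did, and the median log2 fold change was 0.05. DESeq2 called 4 of them, Apela and Fabp4 lower and Klf2 and Ednrb higher, where it called 3.2% of the genes it adjusted. It gave no adjusted p to several of the 62, among them Hey2, Notch4 and Lyve1, so the 4 are out of fewer than 62 genes. Vwf, Cd34 and Cd93, from the endothelial lists, had a row and were named here after their values had been seen. Their mean levels were 5.33, 11.3 and 21.7 CPM with blebbistatin and 5.46, 12.0 and 19.8 CPM in controls. Single libraries raised some of these means. Vwf had medians of 2.73 CPM with blebbistatin and 2.25 CPM in controls. It reached 19.2 CPM in blebbistatin 8 and 28.3 CPM in control 6. Cd93 had medians of 11.7 CPM with blebbistatin and 13.3 CPM in controls, and reached 70.4 CPM in blebbistatin 3. Blebbistatin 3 and control 6 also had the highest macrophage sums of their groups (3414 and 4118 CPM), while blebbistatin 8 had 1215 CPM. The part of macrophage RNA in Vwf and Cd93 was not tested. Some other listed genes were scarcer. Mmrn2, Rasip1 and Sox7 averaged 1.53, 1.64 and 0.669 CPM with blebbistatin and 1.21, 1.19 and 0.605 CPM in controls. Cldn5, Plvap, Nos3, Sox17 and Sox18, which also mark endothelium, had no row, which may mean a low level, and were not analysed here.

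Among 8 measured ligands, 0 passed edgeR and 4 had an unadjusted p under 0.05, where 12.2% of all tested genes did. Apela encodes a peptide ligand of the apelin receptor. It was counted at 0.556, 4.12, 0, 2.63, 0.163, 0.0473, 3.50 and 0.107 CPM in blebbistatin 1 to 8, against 24.8, 24.6, 7.88, 11.7, 16.4, 1.33, 20.7 and 19.5 CPM in control 1 to 8. Control 6 lay among the blebbistatin libraries, and the other 7 controls were above all of them. The mean of Apela was 1.39 ± 1.73 CPM over the blebbistatin libraries and 15.9 ± 8.33 CPM over the control libraries (SD, n = 8 each). Its log2 fold change of −3.51 (SE 0.86) had an edgeR adjusted p of 0.0614. DESeq2 called it (adjusted p = 0.00891), and so did edgeR without control 6 (−3.68, adjusted p = 0.0339), without blebbistatin 2 (−4.03, adjusted p = 0.0468) and with the macrophage covariate (−3.56, adjusted p = 0.0279). Every gene of the table exceeds 1 CPM in at least 4 libraries. Apela did so in every control but only in blebbistatin 2, 4 and 7, and thus reached that limit through the controls. Its calls are not independent of that limit.

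Vegfa, the ligand of Flt1 and Kdr, averaged 39.8 ± 15.1 CPM with blebbistatin and 63.8 ± 16.4 CPM in controls (−0.68, SE 0.21, adjusted p = 0.158), with 7 of 8 blebbistatin libraries below the control median. Angpt2, the angiopoietin that opposes Tek signalling in many settings, averaged 9.91 ± 6.70 CPM with blebbistatin and 4.89 ± 1.94 CPM in controls (1.02, SE 0.35, adjusted p = 0.222). Neither passed the edgeR test.

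Of 10 other receptors 0 passed edgeR and 3 had an unadjusted p under 0.05, where 12.2% of all tested genes did. Ednrb, a receptor of endothelins, ranged from 0.171 to 20.0 CPM with blebbistatin and from 0.144 to 2.95 CPM in controls (log2 fold change 2.63, SE 0.92, adjusted p = 0.222 by edgeR and 0.0396 by DESeq2). Blebbistatin 8 and 6 were the highest, and the other 6 blebbistatin libraries lay within the range of the controls. Only blebbistatin 3, 6, 7 and 8 and control 6 exceeded 1 CPM of Ednrb. It thus reached the table's limit (1 CPM in 4 libraries) through the blebbistatin group, and its DESeq2 call is not independent of that limit. Without blebbistatin 8 the log2 fold change of Ednrb was 1.52, not called, and without control 6 it was 3.53 (adjusted p = 0.0660). For Nrp1, a coreceptor of VEGF, the log2 fold change was −0.50 (adjusted p = 0.289), and for Plxnd1, a semaphorin receptor, 0.68 (adjusted p = 0.393). Of 9 surface and junction genes 0 passed, and the 3 of smallest p were Tm4sf1 (−0.68), Vcam1, a leukocyte adhesion molecule also made by mesothelium (−0.41), and Podxl (−0.73), with adjusted p of 0.285, 0.405 and 0.601.

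Among 16 tested transcription factors 0 passed edgeR. Klf2, a factor that endothelium raises under fluid shear, had 4.19, 7.67 and 8.94 CPM as lowest, median and highest level with blebbistatin, and 1.49, 3.61 and 5.06 CPM in controls. All 8 blebbistatin libraries lay above the control median, and blebbistatin 2 and 5 lay within the range of the controls. The log2 fold change was 0.97 (SE 0.27, adjusted p = 0.111 by edgeR and 0.0228 by DESeq2). Hey2, a target of Notch in arterial endothelium, ranged from 0 to 1.75 CPM with blebbistatin and from 0.602 to 5.15 CPM in controls (log2 fold change −2.38, SE 0.84, adjusted p = 0.225, and −3.03 without blebbistatin 8). DESeq2 gave Hey2 no adjusted p. Only blebbistatin 8 of its group exceeded 1 CPM of Hey2, so Hey2 reached the table's limit (1 CPM in 4 libraries) through the controls. Mef2c, a factor of the MEF2 family, was at 0.57 on the log2 scale (adjusted p = 0.223). Of 4 Notch genes 0 passed, with log2 fold changes of −0.56 for Jag1, 0.33 for Notch1 and 0.77 for Notch4 (adjusted p = 0.370, 0.669 and 0.731).

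Of 6 tested effectors 0 passed edgeR. Fabp4, a fatty acid carrier of capillary endothelium that macrophages also make, ranged from 0.0427 to 3.71 CPM with blebbistatin and from 0.601 to 19.1 CPM in controls, where control 3 and 6 were highest. Its log2 fold change was −2.18 (SE 0.77, adjusted p = 0.225), and DESeq2 called it (−2.21, adjusted p = 0.0453). Arhgef15 and the water channel Aqp1 had log2 fold changes of 0.60 and 0.97 (adjusted p = 0.387 and 0.601), and that of Aqp1 was 1.75 without control 3. Endocardial genes had 0 of 6 called, and the 3 of smallest p were Nrg1, the neuregulin that endocardium sends to heart muscle (0.79, adjusted p = 0.226), Cgnl1 (0.55, adjusted p = 0.264) and Npr3 (1.25, adjusted p = 0.513, and 1.94 without control 4). Lymphatic genes had 0 of 4 called, with Lyve1 at −1.14 (−1.99 without blebbistatin 5), the VEGF-C receptor Flt4 at −0.27 and Pdpn at −0.09 (adjusted p = 0.705, 0.823 and 0.913). Only blebbistatin 5 and 6 of their group exceeded 1 CPM of Lyve1, which thus reached the table's limit through the controls.

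**Figure D5:**
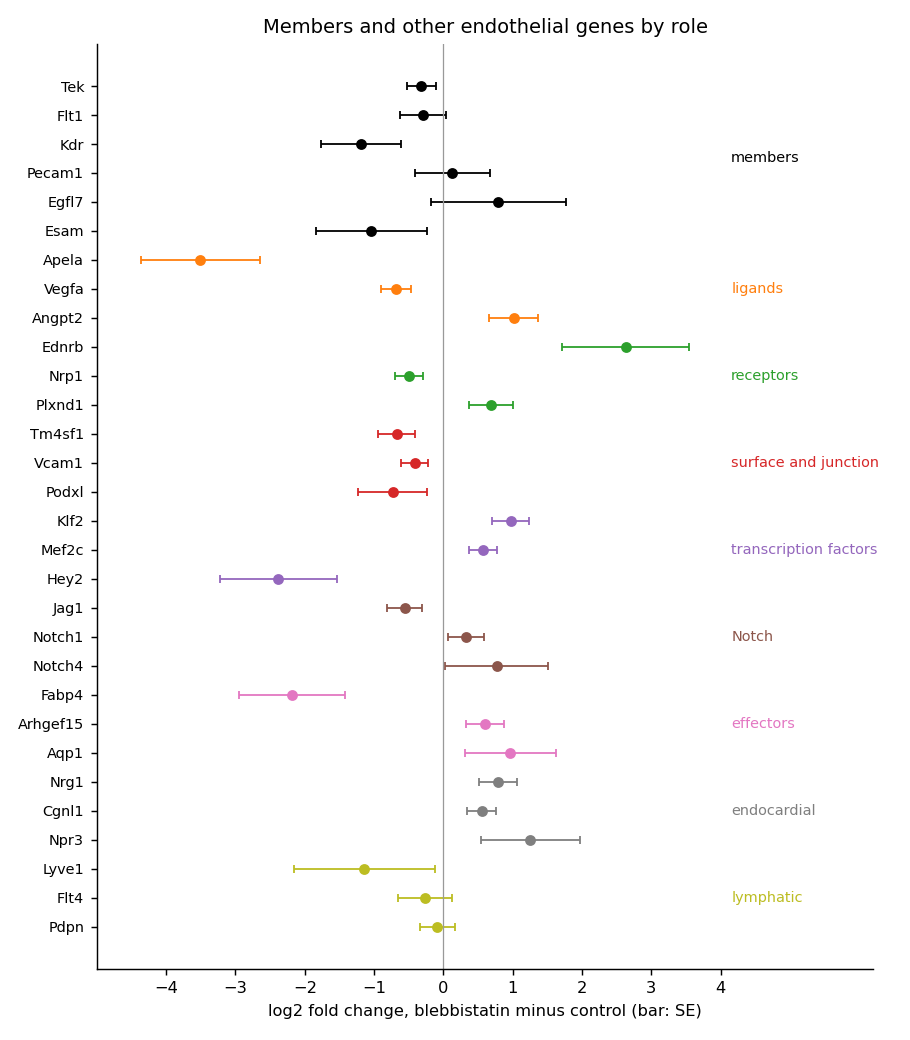
Log2 fold changes, blebbistatin minus control, with bars for SE, of the 6 markers (black) and of 24 other endothelial genes (colours). The 24 are grouped by role and include ligands such as Vegfa and Apela. No gene shown passed edgeR at an adjusted p of 0.05. Apela (−3.51), Hey2 (−2.38) and Fabp4 (−2.18) have the lowest values and Ednrb (2.63) the highest.

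The genes whose pattern over the 16 explants was most like the mean of the 6 standardised markers, among 12522 genes at 1 CPM or more, were Zcchc10 (r = 0.89), Ccdc28b (0.84), Dnm2 (0.83), Herc1 (0.83), Gabre (0.82), Islr (0.82), Khnyn (0.82) and Rabl2 (0.78). None of the 8 was on a list of endothelial genes. Zcchc10 had r = 0.91 within the blebbistatin explants and 0.88 within the controls. Without blebbistatin 1 and 8 the 8 values ran from 0.62 for Rabl2 to 0.86 for Zcchc10. The r values were chosen as the highest of many and carry no p.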

How the data were processed

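RNA from 16 explants was sequenced, 8 with blebbistatin and 8 controls, and groups and replicate numbers come from the sample titles. The authors deposited raw read counts per gene, a column per explant, with 0 columns left unused. The submitters' processing notes name edgeR, HTSeq 0.6.1p1, SAMtools 1.3, Bowtie2 2.2.6.0 and TopHat2 2.1.0, with build mm10 (GRCm38). Roles, annotation, strand setting and filters were not given in the sources used here, and all 15805 deposited genes exceed 1 CPM in at least 4 of 16 libraries, as tested on the table. Per the labels' protocols, libraries were made with an Ovation RNA-Seq kit and a Nextera XT kit, which do not count molecules.

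Identifiers were matched to gene symbols of GENCODE M21 (15665 matched), which also gave positions and exon lengths. Counts were TMM-scaled and filtered with filterByExpr (15675 genes kept), and tested with edgeR 4.0.16 in R 4.3.3 (quasi-likelihood, robust, blebbistatin against control with no covariate), and p-values were adjusted by Benjamini and Hochberg over all genes with a threshold of 0.05. The biological coefficient of variation was 50.1%. Correlations used log2 CPM with a prior count of 2 and 100000 permutations within groups, or exact permutation for 8 libraries, in Python 3.11.15 with scipy 1.17.1. Scripts were tested on simulated data. Alternatives were RLE scaling, DESeq2 1.42.0, limma voom 3.58.1, no filter, a replicate block, a macrophage covariate, no mitochondrial ribosomal RNA, other prior counts and centring, and libraries left out. No 2 libraries of a group repeated each other (smallest chi-square per degree of freedom 48.5).

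The markers and the gene lists were chosen with earlier results of these data known. Named are the 10 markers, from each other endothelial list the genes called by edgeR and the 3 of smallest p, and the 8 genes of most like pattern. Poisson intervals (95%) and the limit that a count of 0 allows (3 counts) cover counting error only.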

Additional observations from a re-analysis of the deposited data

Results flagged for a closer look

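Pecam1 and Egfl7 each had a single library far from the others of its group. In control 6 Pecam1 had 5.33 CPM, where the next highest control had 1.40 CPM. In blebbistatin 8 Egfl7 had 7.83 CPM, where the next highest blebbistatin library had 2.06 CPM. These were 2 of 14 groups of 8 values examined with Dixon's test, from the 6 markers and Apela, a gene named for its small p. For normally distributed values the test flags about 1 group in 20 by chance. CPM were used untransformed and both ends of each group were checked, so that rate may not hold here. Without blebbistatin 8 the log2 fold change of Egfl7 was −0.44, against 0.79 with it.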

How the results depend on the processing

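No marker was called under any alternative. DESeq2 called 424 genes and the macrophage covariate 301, against 95 by edgeR. Leaving out 1 library gave 44 to 206 called genes, with 180 without blebbistatin 5, 49 and 62 without blebbistatin 6 and 8, 206 without control 6, and 60, 58, 52, 44 and 54 without control 1, 2, 4, 7 and 8. Of the other endothelial genes DESeq2 called 4, the macrophage covariate 1, and fits without 1 library 0 to 1. Without centring 1 pair of markers was called. Of the relations with other measures 1 was called without blebbistatin 1 and 8, and 0 to 1 without a single library. The log2 fold change of Egfl7 turned to −0.58 without blebbistatin 1 and 8, and over single libraries left out it ran from −0.44 (without blebbistatin 8) to 1.19. That of Pecam1 ran from −0.13 to 0.81, below 0 without blebbistatin 5, control 2 or control 4, and that of Pdpn from −0.34 to 0.0125, above 0 without blebbistatin 5, control 1 or control 8. Beyond the dropped libraries themselves, the cause was not tested.

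The labels name nothing that same-numbered libraries share, and the numbers were not taken as pairs. Deviations of same-numbered libraries correlated at 0.00394 to 0.279, over 0.1 for 4 of 8 numbers, and 2 of 8 blebbistatin libraries were closest to their own number. With a replicate block 177 genes were called, 0 markers and 1 other endothelial gene, Apela (−4.71, adjusted p = 0.0242), and Egfl7 had a log2 fold change of −0.38. Levels near 1 CPM limit Pecam1, Egfl7 and Esam, where some libraries hold few reads.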
